A study of Mus musculus with 2 samples.

Results

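A panel of 43 mouse genes for lysosomal hydrolases, lysosomal membrane proteins and the transcription factors that control lysosomal genes was followed in interscapular brown adipose tissue (iBAT), out of 52768 genes listed in each library. The members were chosen by known function, as a list of gene symbols. They and the lists set beside them were chosen with earlier results of these data known. The panel comprised 12 proteases, 16 glycosidases and sulfatases, 6 lipid hydrolases and lipid-handling proteins, 5 membrane proteins, progranulin and the 3 regulators *Tfeb*, *Tfe3* and *Mitf*. The study removed METTL3, the catalytic subunit of the enzyme complex that places N6-methyladenosine on mRNA, from brown adipocytes and compared the transcripts of the tissue. All mice were C57BL/6 and 8 weeks old. Control mice (flox/flox) carried the floxed *Mettl3* alleles, and BKO mice carried those alleles together with *Ucp1*-iCre. The *Ucp1* promoter drives the recombinase in brown adipocytes. Macrophages, fibroblasts, endothelial and muscle cells of the same fat pad are expected to keep the gene unrecombined, which these data do not check. RNA of 4 mice was pooled per genotype, which left 1 library per group with no replicate, and no p-value can be given for any difference between the genotypes.

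Values are FPKM, the fragments of a gene scaled by its exon length and by the size of the library, so that levels can be set side by side between genes. Between the libraries the scaling matters, since the sum of FPKM over the whole table was 449531 for the flox/flox pool and 356239 for the BKO pool. Directions of panel members that turn under another scaling are named. For single genes outside the panel this was not followed. A fold is the plain ratio of the FPKM of both libraries. The range in parentheses after it is an exact 95% interval from the fragments counted for that gene, which covers counting error only and neither the spread between mice nor that between library preparations. The pool of flox/flox mice is called the control library and that of BKO mice the BKO-labelled library. Their fragments in genes came to 18929137 and 20219345, respectively. For genes without whole fragments these totals hold estimates from FPKM and annotated exon length. *Mettl3* was listed at 1.80 FPKM in the control library and at 2.38 FPKM in the BKO-labelled library, 1.32-fold higher (1.08 to 1.62) against the label. This gene-level value adds the floxed exons to the other exons and the driver's cells to all other cells, and it does not check the genotype. In bulk tissue, fewer cells of a type and less RNA per cell cannot be told apart.

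Lysosomes are acidic organelles in which soluble hydrolases break down proteins, glycans and lipids that arrive by endocytosis, phagocytosis and autophagy. A proton pump in the limiting membrane keeps the lumen acidic, heavily glycosylated membrane proteins line it, and transporters export the products. TFEB, TFE3 and MITF are related helix-loop-helix transcription factors that bind E-box elements in the promoters of many lysosomal genes and are held in the cytoplasm by the kinase complex mTORC1 when nutrients are plentiful. Macrophages are especially rich in lysosomal enzymes, and in brown adipocytes lysosomes take part in the removal of mitochondria and of stored lipid.

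Most of the lysosomal genes were more abundant in the BKO-labelled library, and the difference was greatest among the cysteine cathepsins. All 43 members averaged 1 FPKM or more, the level required of the 12205 genes that were compared. Ratios were taken as BKO-labelled over control on the log2 scale, with 0.1 FPKM added on each side. By this measure 12 members (27.9%) were at least 2-fold higher, beside 11% of all compared genes. No member was at least 2-fold lower, beside 5.91% of all compared genes (721 of 12205). All members are protein-coding, and lower genes were rarer among compared genes of that type. Of these 10646 genes, 343 passed the 2-fold limit downward and 1199 passed it upward. At a limit of 1.5-fold, 21 members (48.8%) were higher and 1 (2.33%), the cholesterol transporter *Npc1*, was lower, beside 19.6% and 13.6% of compared genes. Of the 10646 protein-coding genes, 2157 passed this limit upward and 1058 downward. The ratio lay above 0 for 33 members (76.7%) and for 51.6% of compared genes.

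The median log2 ratio of the members was 0.56, with a range of -0.63 to 2.43, beside a median of 0.02 over all compared genes. Rescaling both libraries to the same FPKM sum (TPM) raised the ratio of all genes by 0.33 at the median, and scaling to the libraries' own fragment totals raised it by 0.11. Under TPM the median log2 ratio of all genes compared on that scale was 0.36, so that most genes lay above 0 there. Of the 43 members, 41 lay above 0 under TPM. At least 2-fold higher were 20 of the 43 members, beside 20.2% of all genes compared on that scale. Fragments could be worked out for 42 members, all except *Ctsf*, with an exon length other than the annotated one for *Npc1*. The counting interval of the ratio lay above 1 for 30 of them, below 1 for 8, and across 1 for *Gla*, *Idua*, *Arsa* and *Asah1*. No such count over all compared genes is given here, so these numbers describe the panel only. The intervals also take the deposited library sizes as exact. *Psap*, with an interval below 1, had a log2 ratio of 0.023 under the libraries' own totals.

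The order of the members by level was largely shared by the libraries, with a Spearman correlation of 0.906 over the 43 members and 0.869 over all compared genes, given here as a description of genes measured in the same libraries. *Psap*, *Ctsd*, *Ctsb*, *Ctsz* and *Lamp1* were the 5 most abundant members in both libraries and the only ones above 100 FPKM in each, a level that 3.08% of compared genes reached. They held 75.5% of the panel's summed FPKM in the control library and 68.7% in the BKO-labelled library, while the sum itself was 2138 and 2827 FPKM.

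**Figure D1:**
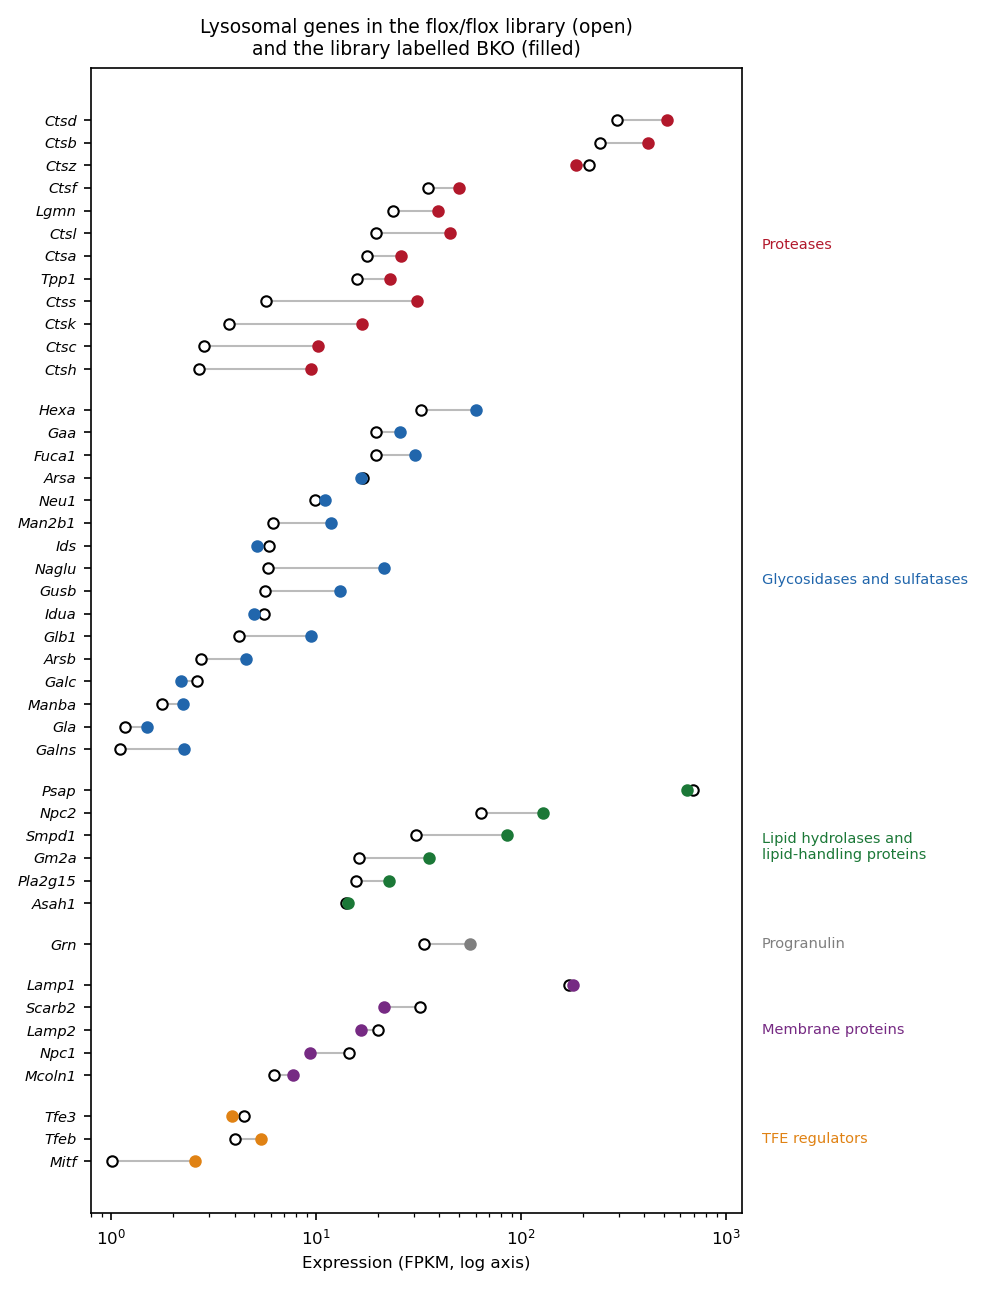
FPKM (log axis) of the 43 lysosomal genes in the control library (open circles) and in the BKO-labelled library (filled circles), grouped by role and ordered by the flox/flox level, with 1 pooled library per genotype and no error bars. Most filled circles lie to the right of their open partner, with the longest lines at *Ctss*, *Ctsk*, *Naglu*, *Ctsc* and *Ctsh*, while *Psap* and *Lamp1* lie close to theirs.

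The regulators themselves were among the least abundant members. *Tfeb*, the main activator of lysosomal biogenesis, was listed at 4.03 FPKM (399 fragments) in the control library and 5.40 FPKM (620 fragments) in the BKO-labelled library, 1.34-fold higher (1.18 to 1.53). *Tfe3*, its close relative, was listed at 4.44 FPKM (718 fragments) and 3.90 FPKM (731 fragments), 1.14-fold lower (1.02 to 1.26), a direction that turned under TPM, where its log2 ratio was 0.15. *Mitf*, which is expressed in melanocytes, osteoclasts, mast cells and macrophages, was listed at 1.01 FPKM (109 fragments) and 2.57 FPKM (322 fragments). Its ratio was 2.55 (2.05 to 3.20), and it was the only regulator past 2-fold. Mast cell markers (*Cpa3*, *Cma1*) were at least 2-fold higher in 2 of 2 cases, at a summed 2.02 and 11.1 FPKM, and macrophage markers in 15 of 15. Their part in the *Mitf* value was not tested. The values describe transcript levels, whereas these factors are regulated largely by their place in the cell.

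Promoters of the members were searched for the element these factors bind. RefSeq promoter windows on GRCm38.p6, from 250 bases before to 50 bases after a transcription start, were at hand for 38 members (46 windows) and not for *Asah1*, *Galns*, *Ctsh*, *Npc1* and *Ctsb*. The E-box CACGTG was present in the windows of 12 members (31.6%), beside 7.15% of 32851 windows of all genes and 12.1% of the 8700 compared genes with a window. The longer form GTCACGTG, which contains the E-box and was searched on both strands, was present for 9 members (23.7%), beside 2.25% of windows and 5.02% of compared genes. The full palindrome GTCACGTGAC was in no member's window and in 0.326% of all windows. The element was first described from lysosomal promoters, so that its presence in such a panel is no independent observation, and a match of letters does not show that a factor binds there. Median GC content was 56.7% in the members' windows and 61.0% in those of the compared genes.

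**Figure D2:**
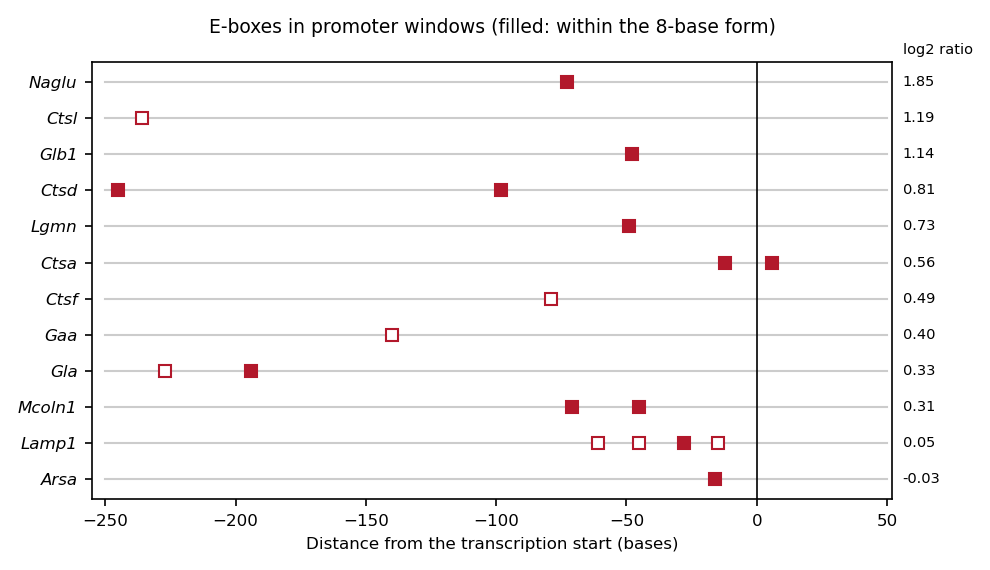
Position of each E-box in bases from the RefSeq transcription start for the 12 members with a match, with filled squares for those within the longer form; members are ordered by their log2 ratio (BKO-labelled library over flox/flox, printed at the right), from 1.85 for *Naglu* to -0.03 for *Arsa*. Of 19 E-boxes, 18 lie before the start, 13 of them within 100 bases, and members with high and low ratios both carry the longer form.

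The sequences just before the start are shown for 6 of the 9 members with the longer form. They include the 2 highest ratios of these members (*Naglu*, *Glb1*), the 2 with more than 1 E-box within 100 bases before the start (*Lamp1*, *Mcoln1*), the abundant *Ctsd* and the lowest ratio (*Arsa*). Each is read 5′ to 3′ on the strand of the gene, with E-boxes in capitals. The stretches are chr11:101069999-101070046 (+) for *Naglu*, chr9:114401008-114401055 (+) for *Glb1*, chr7:142387898-142387945 (−) for *Ctsd*, chr8:3500426-3500501 (+) for *Mcoln1*, chr8:13159090-13159160 (+) for *Lamp1* and chr15:89477425-89477462 (−) for *Arsa*.
Naglu: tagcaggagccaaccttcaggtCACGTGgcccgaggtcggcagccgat
Glb1: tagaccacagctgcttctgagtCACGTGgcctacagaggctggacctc
Ctsd: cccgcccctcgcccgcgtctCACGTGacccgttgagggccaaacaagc
Mcoln1: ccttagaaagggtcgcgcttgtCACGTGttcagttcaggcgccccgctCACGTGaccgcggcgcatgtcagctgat
Lamp1: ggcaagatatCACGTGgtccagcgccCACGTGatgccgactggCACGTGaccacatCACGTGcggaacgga
Arsa: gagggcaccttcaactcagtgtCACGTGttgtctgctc

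The *Lamp1* stretch holds 4 E-boxes, the largest number in the panel, and its log2 ratio was 0.05. *Naglu*, with a single one, had 1.85. Members with an E-box had a median log2 ratio of 0.53 (12 members, 3 at least 2-fold higher, -0.03 to 1.85) and those with a window but no E-box had 0.58 (26 members, 8 at least 2-fold higher, -0.58 to 2.43). The range of the E-box group lay wholly within that of the other, larger group. Of the 4 members with the highest ratios, *Ctss*, *Ctsk*, *Naglu* and *Ctsc*, only *Naglu* carried an E-box. This is near the share in the panel, 12 of 38 members with a window. The 5 members without a window, among them *Npc1* and *Ctsh*, are outside this comparison. Any part of the element in the ratios was not tested.

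Among the proteases, 11 of 12 lay above 0 and 5 were at least 2-fold higher, with a median log2 ratio of 0.80 and summed levels of 878 and 1367 FPKM. The 5 were papain-like cysteine cathepsins, of which the panel holds 8 with a median log2 ratio of 1.49. *Ctss*, the cathepsin of antigen-presenting cells that degrades the invariant chain, was listed at 5.73 FPKM (136 fragments) in the control library and 31.3 FPKM (859 fragments) in the BKO-labelled library, 5.45-fold higher (4.55 to 6.59). *Ctsk*, the collagenolytic cathepsin best known from osteoclasts, was listed at 3.75 FPKM (99 fragments) and 16.8 FPKM (514 fragments), 4.48-fold higher (3.61 to 5.62). These 2 genes with the highest ratios of the panel are neighbours on the plus strand (GRCm38, *Ctsk* chr3:95499256-95509362 and *Ctss* chr3:95526786-95556403), 17423 bases apart with no annotated gene between them.

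*Ctsc*, the dipeptidyl peptidase that activates granule serine proteases, was listed at 2.84 FPKM (288 fragments) and 10.2 FPKM (1199 fragments), 3.60-fold higher (3.16 to 4.10). *Ctsh*, an aminopeptidase, was listed at 2.67 FPKM (210 fragments) and 9.46 FPKM (861 fragments), 3.54-fold higher (3.04 to 4.14). *Ctsl*, a broadly expressed endopeptidase, was listed at 19.6 FPKM (2225 fragments) and 44.9 FPKM (5893 fragments), 2.29-fold higher (2.18 to 2.40). In the control library *Ctss*, *Ctsk*, *Ctsc* and *Ctsh* were the 4 least abundant proteases, and in the BKO-labelled library all 4 except *Ctss* still were below every other protease.

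The abundant proteases differed less, which is not particular to them. Of all compared genes below 10 FPKM in the control library, 14.2% were at least 2-fold higher. At or above 10 FPKM the share was 3.99%. In the panel, 8 of 20 members below that level and 4 of 23 at or above it were at least 2-fold higher. *Ctsd*, the main aspartic protease of lysosomes, was listed at 294 FPKM (12068 fragments) and 516 FPKM (24558 fragments), 1.76-fold higher (1.72 to 1.80). *Ctsb*, the most abundant cysteine cathepsin here, was listed at 242 FPKM (25568 fragments) and 415 FPKM (50871 fragments), 1.72-fold higher (1.69 to 1.74). Among protein-coding genes ordered by FPKM, *Ctsd* moved from place 142 to place 66 and *Ctsb* from 186 to 83, and both had narrow counting intervals. *Ctsz*, a carboxypeptidase, was the single protease with the opposite direction, at 215 FPKM (5425 fragments) and 185 FPKM (5400 fragments), 1.16-fold lower (1.12 to 1.21), which turned to a log2 ratio of 0.12 under TPM.

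The other 4 proteases lay between 1.41-fold and 1.66-fold higher. They were the asparaginyl endopeptidase *Lgmn* (23.6 and 39.2 FPKM), the protective protein *Ctsa*, which stabilises β-galactosidase and neuraminidase (17.6 and 26.0 FPKM), the tripeptidyl peptidase *Tpp1* (15.9 and 23.0 FPKM) and *Ctsf* (35.3 and 49.7 FPKM, 1.41-fold, fragments not determined). Exons shared with another annotated gene make some values uncertain, since the treatment of strand and of shared reads is not given in the sources used here. *Ctsd* shares 34.4% of its exon bases with a gene model on the same strand, *Ctsl* 6.09% and *Glb1* 5.49%. Exons on opposite strands overlap in 12 members, with the largest shares for *Arsb* (39.9%), *Ctsl* (26.8%) and *Arsa* (18.8%).

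Macrophage markers moved in the same direction as the proteases. All 15 of 15 were at least 2-fold higher in the BKO-labelled library, with log2 ratios of 1.62 to 2.66 and a median of 2.05, none was at 0 in either library, and their summed level was 127 FPKM in the control library and 632 FPKM in the BKO-labelled library, a ratio of 4.97. The ratios of *Ctss*, *Ctsk*, *Ctsc* and *Ctsh*, 1.79 to 2.43 on the log2 scale, lay within the span of these markers. Among the other members only *Naglu*, at 1.85, did so, and the rest lay below it. The match is not particular to macrophages. The mast cell markers spanned 1.57 to 2.98, which also holds these 4 cathepsins. The spans of fibroblast markers (0.89 to 2.38) and neutrophil markers (1.20 to 2.31) hold *Ctsk*, *Ctsc* and *Ctsh*. Of the other marker lists, fibroblast markers were at least 2-fold higher in 3 of 4 cases (summed FPKM 56.5 and 206), skeletal muscle markers in 5 of 5 (33.7 and 2422), and neutrophil markers in 2 of 2 (7.79 and 24.5). Brown adipocyte markers were at least 2-fold lower in 2 of 4 cases (4769.6 and 1673) and endothelial markers in 3 of 4 (164.6 and 66.3), whereas all 4 general adipocyte markers lay above 0, 1 of them at least 2-fold higher (2668 and 3389). Of the dendritic cell markers only *Cd74* passed the filter, and it was at least 2-fold higher (65.3 and 178). Of the B cell markers only *Cd79a* passed, and it was at least 2-fold lower (2.04 and 0.712), and no T and NK cell marker passed. Of 4 osteoclast or giant cell markers, *Calcr* was at 0 in both libraries and *Dcstamp* in the control library, and only *Acp5* passed the filter. The part of these cell types in the lysosomal values was not tested. Without the 7 members known as high in myeloid cells (*Ctsc*, *Ctsh*, *Ctsk*, *Ctss*, *Ctsz*, *Lgmn* and *Grn*), 8 of 36 members (22.2%) were at least 2-fold higher, beside 11% of all compared genes. The members' median was then 0.51 and that of the 6 remaining proteases 0.67. The 36 genes were not chosen as absent from macrophages, so leaving out the 7 does not separate the cell types.

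**Figure D3:**
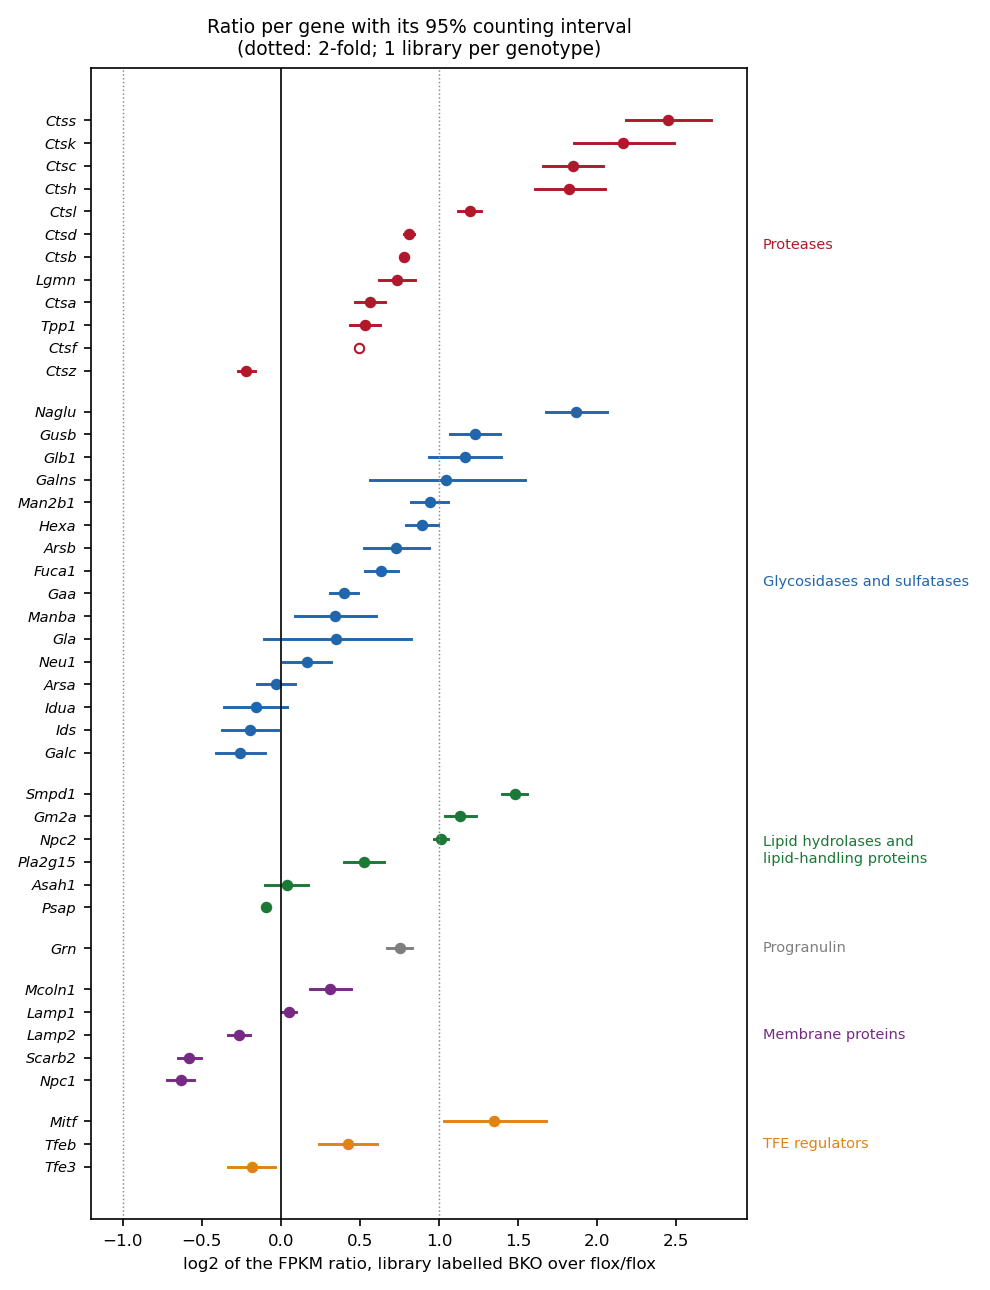
Log2 of the FPKM ratio, BKO-labelled library over flox/flox, for each of the 43 genes by role, with its exact 95% counting interval (line); the open circle is *Ctsf*, whose fragments were not determined, and dotted lines mark 2-fold. The cathepsins *Ctss*, *Ctsk*, *Ctsc* and *Ctsh* and the glycosidase *Naglu* lie farthest to the right, and *Npc1* and *Scarb2* lie farthest to the left; under TPM 8 of the 10 genes left of 0 move to its right, but not these 2.

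The enzymes that take sugars and sulfate groups from glycans had a median log2 ratio of 0.52, with 12 of 16 above 0, and their summed level was 141 and 223 FPKM. The 12 glycosidases had a median of 0.52 and the 4 sulfatases 0.34, and each of the 3 genes at least 2-fold higher was a glycosidase. *Naglu*, which removes N-acetylglucosamine from heparan sulfate, was listed at 5.85 FPKM (272 fragments) in the control library and 21.4 FPKM (1149 fragments) in the BKO-labelled library, 3.65-fold higher (3.19 to 4.18), the highest ratio of the panel outside the proteases. *Gusb*, the β-glucuronidase of glycosaminoglycan breakdown, was listed at 5.61 FPKM (446 fragments) and 13.1 FPKM (1209 fragments), 2.34-fold higher (2.10 to 2.62). *Glb1*, the acid β-galactosidase, was listed at 4.20 FPKM (221 fragments) and 9.41 FPKM (573 fragments), 2.24-fold higher (1.91 to 2.63), so that its interval reached below 2.

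Not all steps of glycan breakdown differed alike. *Galns*, the sulfatase of keratan and chondroitin sulfate, was listed at 1.10 and 2.27 FPKM with only 51 and 122 fragments, and its ratio of 2.07 (1.48 to 2.92) came to 0.98 on the log2 scale with the added 0.1 FPKM, just short of the limit. Just below it, *Man2b1*, the acid α-mannosidase, was listed at 6.17 and 11.9 FPKM (1.92-fold) and *Hexa*, the α subunit of β-hexosaminidase and the most abundant enzyme of the group, at 32.5 and 60.3 FPKM (1.86-fold). The sulfatase *Arsb* was listed at 2.76 and 4.57 FPKM (1.66-fold) and the fucosidase *Fuca1* at 19.5 and 30.3 FPKM (1.55-fold). *Gaa*, which degrades glycogen, was at 19.6 and 25.8 FPKM (1.32-fold), *Gla*, the α-galactosidase, at 1.17 and 1.498 FPKM (1.28-fold), *Manba*, the β-mannosidase, at 1.76 and 2.24 FPKM (1.27-fold), and the neuraminidase *Neu1* at 9.88 and 11.1 FPKM (1.12-fold).

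The remaining 4 enzymes of this group had ratios slightly below 0, and all of these directions turned under TPM. *Galc*, which degrades galactosylceramide, was listed at 2.63 FPKM (684 fragments) and 2.20 FPKM (663 fragments), 1.19-fold lower (1.07 to 1.33), with a log2 ratio of 0.078 under TPM. *Ids*, the iduronate sulfatase, was listed at 5.89 FPKM (525 fragments) and 5.13 FPKM (530 fragments), 1.15-fold lower (1.01 to 1.30), with 0.14 under TPM. The iduronidase *Idua* (5.58 and 4.99 FPKM) and the arylsulfatase *Arsa* (16.9 and 16.5 FPKM) had counting intervals that covered 1, with 0.17 and 0.30 under TPM. *Ids*, *Idua*, *Naglu* and *Gusb* all act in heparan sulfate breakdown, and of these *Naglu* and *Gusb* were past 2-fold.

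Among the lipid-handling members, cholesterol and sphingolipid proteins of the lumen were higher, apart from *Psap* and *Asah1*. Of 6 members, 5 lay above 0 and 3 were at least 2-fold higher, with a median log2 ratio of 0.77. *Smpd1*, the acid sphingomyelinase, was listed at 30.8 FPKM (1798 fragments) in the control library and 85.9 FPKM (5802 fragments) in the BKO-labelled library, 2.79-fold higher (2.64 to 2.94), and was thus the most abundant hydrolase of the panel at least 2-fold higher. *Gm2a*, the activator protein that presents GM2 ganglioside to β-hexosaminidase, was listed at 16.3 FPKM (1175 fragments) and 35.8 FPKM (2988 fragments), 2.20-fold higher (2.05 to 2.35). *Npc2*, the soluble cholesterol-binding protein of the lumen, was listed at 63.9 FPKM (6074 fragments) and 129 FPKM (14173 fragments), 2.02-fold higher (1.96 to 2.08), with an interval that covered 2. *Pla2g15*, the lysosomal phospholipase A2, was listed at 15.7 and 22.6 FPKM (1.44-fold).

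*Psap*, the precursor of the saposins that assist sphingolipid hydrolases, was the most abundant gene of the panel, at 690.4 FPKM (33116 fragments) and 647 FPKM (35939 fragments), 1.07-fold lower (1.05 to 1.08), which turned to log2 ratios of 0.24 under TPM and 0.023 under the libraries' own totals. It was in place 53 among protein-coding genes in the control library and in place 48 in the BKO-labelled library. *Asah1*, the acid ceramidase that acts on the product of *Smpd1*, was listed at 13.97 FPKM (828 fragments) and 14.3 FPKM (983 fragments), a ratio of 1.03 (0.934 to 1.13). Because *Psap* carried most of the sum, the summed level of the group, 831 and 934 FPKM, moved less than its median. *Grn*, the precursor of the luminal granulins, was listed at 33.6 FPKM (2040 fragments) and 56.6 FPKM (3977 fragments), 1.68-fold higher (1.60 to 1.78).

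The 5 membrane proteins of the panel were divided in direction. None was 1.5-fold higher, 2 lay above 0 and 3 below, their summed level was 245 and 234 FPKM, and their median log2 ratio of -0.27 turned to 0.068 under TPM, where the median of all compared genes was 0.36. The 35 soluble hydrolases and luminal proteins, by comparison, had a median of 0.73 with 29 above 0 and 11 at least 2-fold higher. *Npc1*, which takes cholesterol from NPC2 and passes it through the membrane, was listed at 14.5 FPKM (2721 fragments) in the control library and 9.35 FPKM (2029 fragments) in the BKO-labelled library, 1.55-fold lower (1.47 to 1.65). *Scarb2*, the receptor that carries β-glucocerebrosidase to lysosomes, was listed at 32.0 FPKM (3521 fragments) and 21.4 FPKM (2725 fragments), 1.496-fold lower (1.42 to 1.57). Both stayed below 0 in every scaling that was tried. The partner proteins *Npc1* and *Npc2* thus lay on opposite sides, at log2 ratios of -0.63 and 1.01.

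*Lamp1* and *Lamp2* encode the major glycoproteins of the lysosomal membrane. *Lamp1* was listed at 172 FPKM (8060 fragments) and 179 FPKM (9678 fragments), 1.04-fold higher (1.01 to 1.07). *Lamp2*, of which 1 isoform serves chaperone-mediated autophagy, was listed at 19.98 FPKM (3336 fragments) and 16.6 FPKM (3209 fragments), 1.20-fold lower (1.15 to 1.26), which turned to a log2 ratio of 0.068 under TPM. *Mcoln1*, the calcium channel of the lysosomal membrane, was listed at 6.23 FPKM (823 fragments) and 7.74 FPKM (1184 fragments), 1.24-fold higher (1.14 to 1.36). The log2 ratio of *Lamp1*, a widely used marker of lysosomes, was nearer to 0 than that of every luminal member except *Arsa* and *Asah1*. Brown adipocyte markers (summed FPKM 4769.6 and 1673) and endothelial markers (164.6 and 66.3) were lower in the BKO-labelled library. They moved in the direction of *Npc1* and *Scarb2*, as did the B cell marker *Cd79a*. General adipocyte markers moved in the other direction (2668 and 3389). The part of any of these cell types in these values was not tested.

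Further genes of the lysosome outside the panel were read in the same way. For single genes of these and the following lists no value under another scaling is given. Slight differences below 0, such as those of *Cst3*, *Laptm4a* and *Atp6v1g1*, are smaller than the median shift under TPM, so their directions are not settled. The proton pump that acidifies the lumen, the v-ATPase, had 17 listed subunits and accessory proteins, of which 16 passed the filter, none differed 2-fold, the median log2 ratio was 0.02 and the summed level was 459 and 460.4 FPKM. They ranged from *Atp6v1g1* (61.4 and 53.4 FPKM, 1.15-fold lower, 1.06 to 1.25) to *Atp6v0a1* (8.49 and 11.8 FPKM, 1.39-fold higher, 1.28 to 1.504). The subunit below the filter was *Atp6v0d2*, which is known from osteoclasts and macrophages and had 4 and 38 fragments. The median of the pump moved with the scaling, to 0.36 under TPM, at the median of all compared genes on that scale.

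Other soluble enzymes had a median log2 ratio of 0.44 over 18 genes, beside 0.73 for the soluble members of the panel, with 15 above 0, 3 at least 2-fold higher and none 2-fold lower. Among these were the nuclease *Dnase2a* (1.36 and 3.14 FPKM, 2.31-fold, 1.88 to 2.85) and the acid phosphatase *Acp5* (80.5 and 175 FPKM, 2.17-fold, 2.08 to 2.27), which is also a marker of osteoclasts. The lowest was the carboxypeptidase *Scpep1* (54.0 and 39.2 FPKM, 1.38-fold lower, 1.29 to 1.47). Of 14 other membrane proteins 13 passed the filter, with a median of 0.29, and 12 lay above 0, 3 of them at least 1.5-fold higher, unlike the membrane proteins of the panel, of which 2 lay above 0. The highest was *Laptm5*, which is expressed in blood cells (2.78 and 11.5 FPKM, 4.13-fold, 3.52 to 4.87), and the lowest was *Laptm4a* (190.3 and 161 FPKM, 1.18-fold lower, 1.14 to 1.23).

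Genes that deliver enzymes to the lysosome had a median log2 ratio of 0.20 over 7 genes. The subunits of the phosphotransferase that starts the mannose 6-phosphate tag lay on opposite sides, *Gnptab* at 5.34 and 13.1 FPKM (2.46-fold higher, 2.23 to 2.72) and *Gnptg* at 9.67 and 6.44 FPKM (1.502-fold lower, 1.29 to 1.75). Of the cystatins, which inhibit cysteine cathepsins, the secreted *Cst3* was listed at 608 and 537 FPKM (1.13-fold lower, 1.11 to 1.16) and the cytosolic *Cstb* at 76.6 and 99.5 FPKM (1.30-fold higher, 1.19 to 1.42), while *Cst7* had only 5 and 4 fragments.

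The mTORC1 and Rag proteins that act on TFEB at the lysosomal surface had a median log2 ratio of 0.14 over 13 genes. The exception was *Rragd*, a Rag GTPase and known target of TFEB and MITF, at 0.697 FPKM (63 fragments) and 3.42 FPKM (358 fragments), 4.91-fold higher (3.75 to 6.52). The lowest was *Rptor*, the scaffold of mTORC1, at 5.08 and 3.77 FPKM (1.35-fold lower, 1.24 to 1.47). Autophagy genes had a median of -0.01 over 15 genes, which became 0.32 under TPM, and none differed 2-fold. They ranged from the mitophagy receptor *Bnip3* (161 and 112 FPKM, 1.44-fold lower, 1.38 to 1.49) to *Wipi1* (4.29 and 8.27 FPKM, 1.93-fold higher, 1.69 to 2.20).

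**Figure D4:**
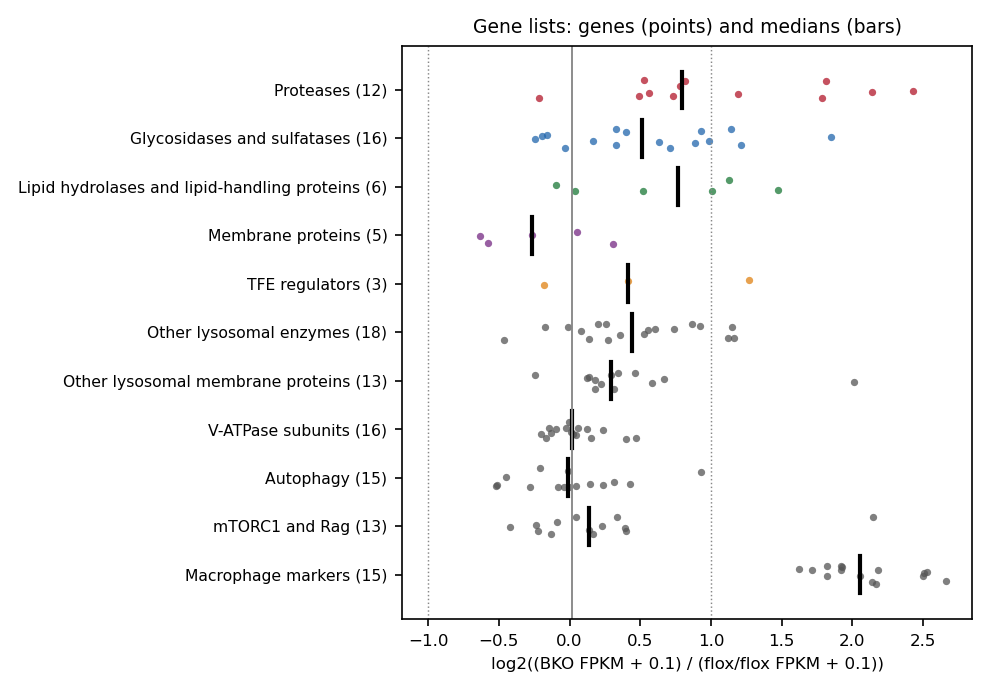
Log2 ratio of FPKM plus 0.1, BKO-labelled library over flox/flox, for single genes (points, vertical scatter has no meaning) in each list with its number of genes; black bars are list medians, the grey line is the median of all compared genes and dotted lines mark 2-fold. Bars of the proteases (0.80), glycosidases and sulfatases (0.52) and lipid-handling proteins (0.77) lie right of the grey line at 0.02, the v-ATPase bar (0.02) lies on it, the membrane protein bar (-0.27, but 0.068 under TPM) lies left of it, and macrophage markers (2.05) lie farthest to the right.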

How the data were processed

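Total RNA of iBAT had been pooled from 4 mice per genotype and sequenced as 1 library each. The authors aligned paired-end reads to GRCm38 with TopHat2 and counted them with HTSeq (version 0.6.1, as the submitters noted). FPKM, 1 value for each gene, were deposited, and how they were computed from the counts is not given in the sources used here. Of 52768 genes, 52403 were matched to GENCODE M21. Multiplying FPKM by exon length gave whole fragments (within 0.001, or a relative 1e-08) for 92.5% of compared genes. This share includes genes whose annotated length failed while a single other length within 50% of it fitted both libraries, among them *Npc1* and *Mettl3*. The step was tested on simulated data with annotated lengths only, so the search for another length was not tested. The deposited FPKM were scaled to sizes of 17480546 (flox/flox) and 20240633 (BKO) fragments, whereas the totals over genes came to 18929137 and 20219345. These totals include estimates, from FPKM and annotated exon length, for genes without whole fragments. The sizes thus disagree in the flox/flox library. The reason is not given in the sources used here, and the part of the estimated genes in it was not tested. Scaling to these totals turned the direction of *Arsa* and *Psap*. The main measure was the log2 ratio after adding 0.1 FPKM, over 12205 genes that averaged 1 FPKM or more, and folds carry Clopper-Pearson intervals. No test was possible with 1 library per group. Alternatives were pseudocounts of 1 and 0.01 FPKM, no filter or a filter of 5 FPKM, TPM, own totals, median centring and leaving out members high in myeloid cells. Promoter windows came from RefSeq (GRCm38.p6).

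The members and lists were chosen with earlier results of these data known. Full values were given for the regulators, the 2 highest and 2 lowest members of each role, those at least 2-fold different and the 5 most abundant, and, in the other lists, for the highest, the lowest and those past 2-fold, except 1 gene that is not reported here. Python 3.11.15, NumPy 2.4.6, pandas 2.3.3, SciPy 1.17.1 and Matplotlib 3.10.9 were used.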

Additional observations from a re-analysis of the deposited data

How the results depend on the processing

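No paired analysis was possible because each genotype has 1 library, and no replicate could be left out. The count of members at least 2-fold higher, 12 in the main setting, was 10 with a pseudocount of 1 FPKM, 13 with 0.01 FPKM, 12 without a filter, 11 of 35 members at 5 FPKM or more, 15 with own totals and 11 after centring. The shares of all genes compared, in the same order from the main setting on, were 11.0%, 7.99%, 11.2%, 13.7%, 8.31%, 12.6% and 10.7%, and 20.2% under TPM. No member was 2-fold lower in any of these settings or under TPM. Under TPM the count was 20, and the median log2 ratios were 0.90 for all members, 1.13 for proteases, 0.85 for glycosidases and sulfatases, 1.10 for lipid-handling proteins and 0.75 for the TFE regulators, while that of membrane proteins turned to 0.068; the share of higher genes among all 2-fold calls was 80.5% (65.0% in the main setting, 73.2% with own totals). Own totals gave medians of 0.91 for proteases, 0.88 for lipid-handling proteins and -0.15 for membrane proteins. Centring gave 0.78 for proteases, and leaving out the members high in myeloid cells gave 0.67. Directions turned under TPM for *Ctsz* (0.12), *Galc* (0.078), *Idua* (0.17), *Ids* (0.14), *Arsa* (0.30), *Psap* (0.24), *Lamp2* (0.068) and *Tfe3* (0.15), and under own totals for *Arsa* (0.084) and *Psap* (0.023). The shifts under TPM and own totals follow from the scale factors, which move all genes alike. No TFE regulator reached a mean of 5 FPKM, so that their median has no value there. Members with few fragments, such as *Galns* (51 and 122) and *Gla* (67 and 99), limit what can be said of their ratios.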
